A study of Mus musculus with 10 samples.

Results

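Klk1b16 and Klk1b8 are members of the mouse Klk1b kallikrein family, and each was measured by 1 array feature of the 22359 mRNA features in the deposited table of 60641 mRNA and long noncoding RNA features. The pair was chosen on its log2 fold change between aged and young hearts, so the change with age is described below without a test. The hearts came from male wild-type C57BL/6 mice, 5 at 3 months of age (3m) and 5 at 20 months (20m), and each heart was hybridized to its own one-colour array. No introduced allele and no treatment that differs between the groups is given, and the methods describe isoflurane anesthesia for echocardiography before the mice were killed. Per the study's methods the young and the aged mice came from different suppliers, and the aged mice were kept by the study until the stated age, so that supplier and age cannot be told apart. RNA came from heart tissue, in which fewer cells of a type and less RNA per cell cannot be told apart. Feature names were taken from the study's list of 118 changed mRNAs and a further list of decreased mRNAs, which together named 735 mRNA features, and none of the 8 cardiomyocyte markers was among them, so the tissue label could not be checked here.

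Tissue kallikreins are secreted serine proteases that cut proteins after basic residues. The original member, Klk1, releases kinins, short vasodilator peptides, from kininogen. In mice the family expanded by repeated duplication into the Klk1b genes, which are best known from the submandibular salivary gland, where many of them depend on androgen. Klk1b16 encodes gamma-renin, named for an angiotensin-forming activity attributed to it. Klk1b4 encodes the alpha subunit of the 7S nerve growth factor complex and Klk1b3 the gamma subunit.

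The genes lie in a tandem array. In the RefSeq annotation of GRCm38.p6, chromosome 7 holds 37 kallikrein genes, among them 23 Klk1b genes, of which 13 are protein-coding and 10 are pseudogenes. The stretch from the start of Klk1b7-ps to the end of Klk1 spans 284.611 kb. Klk1b8 is annotated at chr7:43950666-43954944 and Klk1b16 at chr7:44122254-44141610. The members are not neighbours, since 167.309 kb separate the end of Klk1b8 from the start of Klk1b16 and 15 kallikrein genes, 8 of them pseudogenes, start in that interval. Klk1b4, a paralog that was also on the study's list and is used below as the comparison within the family, lies at chr7:44207433-44211754, 65.822 kb beyond Klk1b16.

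**Figure D1:**
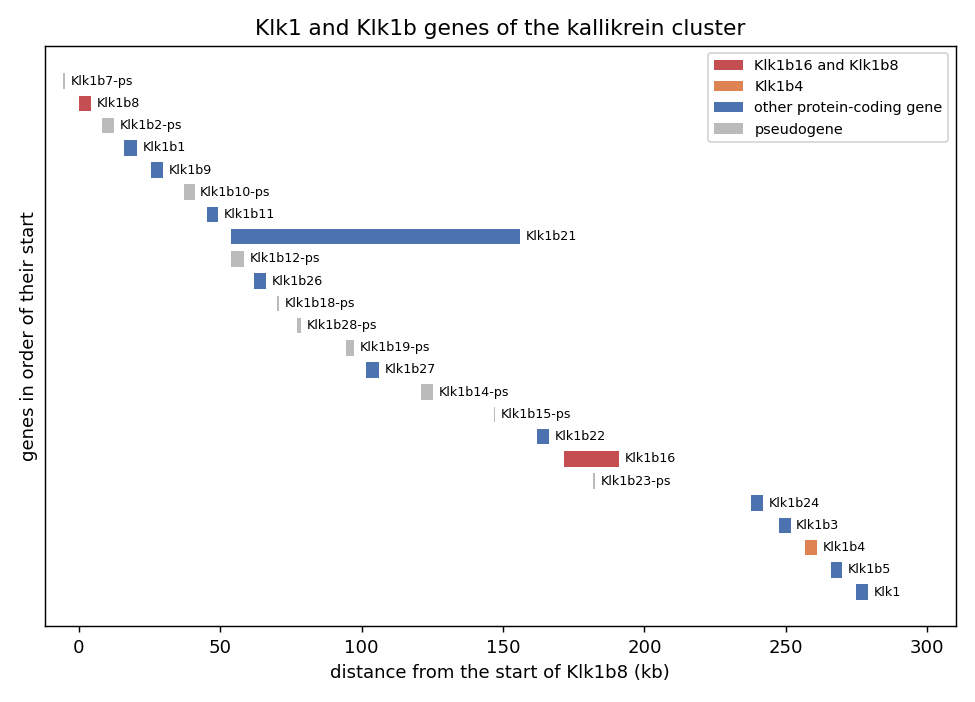
Map of the Klk1 and Klk1b genes in RefSeq's GRCm38.p6 annotation, one row per gene, with the distance from the start of Klk1b8 in kb on the horizontal axis and bars drawn over each gene record. Klk1b16 and Klk1b8 are in red, Klk1b4 in orange, other protein-coding genes in blue and pseudogenes in grey. The reader should see that 15 family members start between the red bars.

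Array features for near-identical genes can bind each other's RNA, so the oligos are shown first. Each is 60 bases long and holds AATAAA, the hexamer that marks the polyadenylation site near the end of an mRNA, and the oligos were set in register on it. The following 30-base stretches around the hexamer have capitals where the base differs from the gene compared, which is Klk1b8 for the first line and Klk1b16 for the others.
Klk1b16: acattGtTccatgttTtcaataaaacccaA
Klk1b8: acattAtCccatgttCtcaataaaacccaC
Klk1b4: acattgtCccCtTttCtcaataaaGcccaC

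Over this stretch Klk1b16 and Klk1b8 differed at 4 bases, and Klk1b16 and Klk1b4 at 6. Over all positions that both oligos cover, Klk1b16 and Klk1b8 were identical at 51 of 57 bases (89.5%), with a longest shared run of 13 bases. Klk1b16 and Klk1b4 shared 49 of 60 bases (81.7%) and Klk1b8 and Klk1b4 49 of 57 (86.0%), with a longest run of 15 bases in each case. How far transcripts of one paralog, or of Klk1b genes with no named feature, contribute to the signal of another was not tested, and the values below belong to the features.

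The Klk1b16 feature read 6.18, 5.64, 5.12, 5.54 and 5.01 in 3m replicates 1 to 5 and 10.35, 9.28, 9.45, 9.53 and 9.49 in 20m replicates 1 to 5, as log2 quantile-normalized intensity. The lowest aged heart was 3.09 log2 units above the highest young heart. The mean was 5.50 ± 0.47 (SD, n = 5) in young and 9.62 ± 0.42 (SD, n = 5) in aged hearts, a log2 fold change of 4.12 (SE 0.25), or 17.4-fold.

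The Klk1b8 feature read 6.40, 5.70, 5.78, 6.06 and 5.17 in the 3m hearts and 10.32, 9.14, 9.35, 9.67 and 9.58 in the 20m hearts, in the same order and on the same scale. The groups were again separate, by 2.74 log2 units. Young hearts averaged 5.82 ± 0.46 and aged hearts 9.61 ± 0.45 (SD, n = 5 each), and the log2 fold change was 3.79 (SE 0.26), or 13.8-fold.

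Of the 16720 mRNA features tested, those marked as well above background by the scanner software in 5 or more of the 10 hearts, 4.0% were called higher in aged hearts by limma (adjusted p below 0.05 and at least 1 log2 unit), and 8.28% had every aged heart above every young heart. The median log2 fold change of all these features was -0.05. Among the 669 features called higher, Klk1b16 and Klk1b8 ranked 2 and 3 by log2 fold change, and Klk1b4 ranked 14. Nothing is read from these places for the members, because the same contrast chose them.

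**Figure D2:**
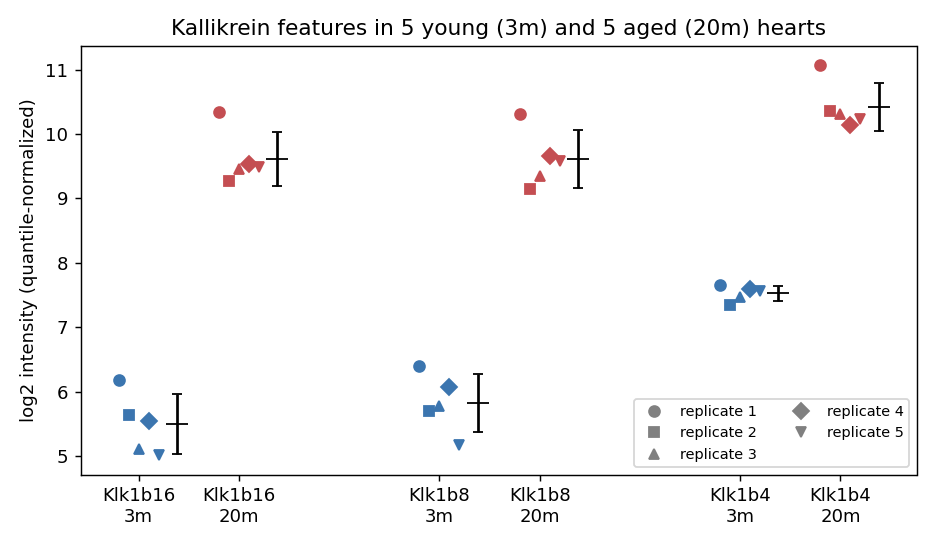
Log2 quantile-normalized intensity of the Klk1b16, Klk1b8 and Klk1b4 features in each heart, by age group, with one symbol per replicate number and the group mean ± SD (n = 5) as a bar at the right of each set. For each gene all 5 aged hearts lie above all 5 young hearts, and 20m replicate 1 is the highest aged heart for each. Heights are not comparable between genes, since features differ in binding strength.

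The members were dim but measurable in young hearts. Before normalization the processed intensity of Klk1b16 was 40.6 to 65.2 in young hearts (median 47.0) and 467 to 1065 in aged hearts (median 616). That of Klk1b8 was 43.2 to 94.6 (median 74.2) and 437 to 1047 (median 673). The lowest intensity that the scanner software marked as well above background was between 8.06 and 12.2 on the 10 arrays, so neither feature was near that limit. Both were well above background on 5 of 5 arrays of each group, and none of their spots was marked as an outlier or saturated. The local background around the spots was 17 to 21 in all hearts. With normexp on the median spot intensities and an offset of 50, in place of the scanner's processed signal, the log2 fold changes were smaller, at 3.02 for Klk1b16 and 2.87 for Klk1b8. That setting changes the intensity measure, the background correction and the offset at once, and an added offset by its construction shrinks the fold changes of features this dim.

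Klk1b4 had the next listed change in the family. Its feature read 7.65, 7.34, 7.48, 7.59 and 7.57 in 3m replicates 1 to 5 and 11.06, 10.35, 10.31, 10.14 and 10.24 in 20m replicates 1 to 5. Young hearts were close together, at 7.53 ± 0.12 (SD, n = 5), and aged hearts reached 10.42 ± 0.37 (SD, n = 5). The log2 fold change was 2.90 (SE 0.18), or 7.44-fold, with an adjusted p of 1.27e-06 in limma over all mRNA features, and every aged heart was above every young heart. Klk1b4 too was put on the study's list from these samples, so its call is not independent evidence about the family.

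As processed here, the log2 fold changes of the members were larger than that of Klk1b4. The difference between the features within an array, Klk1b16 minus Klk1b4, was -2.03 ± 0.45 (SD, n = 5) in young and -0.80 ± 0.18 (SD, n = 5) in aged hearts, and the groups did not overlap (-2.55 to -1.47 against -1.07 to -0.61). The rise of Klk1b16 was 1.22 log2 units (SE 0.22) larger than that of Klk1b4. Since the members were chosen on this very change and ranked above Klk1b4 by it, a larger rise is part of how they were chosen, and these gaps are a description without a test. For Klk1b8 minus Klk1b4 the corresponding figure was 0.89 (SE 0.23), and the groups nearly met (-2.40 to -1.25 against -1.21 to -0.48). With normexp the gaps to Klk1b4 were 0.43 for Klk1b16 and 0.28 for Klk1b8, and with the GAPDH 3' to 5' ratio described below as a covariate they were 1.77 and 1.38.

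Klk1b16 and Klk1b8 differed less from each other. Klk1b16 minus Klk1b8 was -0.22, -0.06, -0.67, -0.52 and -0.16 in 3m replicates 1 to 5 and 0.03, 0.14, 0.10, -0.14 and -0.09 in 20m replicates 1 to 5. The rise of Klk1b16 was larger by 0.33 log2 units (SE 0.13), and the groups overlapped, with 3m replicate 2 inside the range of the aged hearts. It was 0.15 with normexp and 0.46 with slide as a block, where a slide means arrays that share a scan date recorded by the scanner software. As the pair was chosen for its change with age, this difference is given without a test.

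The likeness of the pair from heart to heart was then described. Over the 10 arrays the log2 values of Klk1b16 and Klk1b8 had a Pearson r of 0.996, and each was the closest match of the other among 41202 features of both RNA classes. Klk1b4 came at place 4 for Klk1b16 (r = 0.988) and place 5 for Klk1b8 (r = 0.985). These correlations share 10 arrays and mostly carry the difference between the age groups.

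After the mean of each age group was taken off, the deviations of Klk1b16 and Klk1b8 still had r = 0.899 over the 10 arrays. Klk1b8 was then at place 18 for Klk1b16 and Klk1b16 at place 4 for Klk1b8. Both genes were highest in replicate 1 of each group, by 0.69 and 0.73 log2 units over the group mean for Klk1b16 and by 0.58 and 0.71 for Klk1b8. Both were lowest in 3m replicate 5 and, among aged hearts, in 20m replicate 2. Without replicate 1 of both groups, an alternative chosen after the data were seen, the deviations had r = 0.691 over 8 arrays, and the places were 1219 and 1900, so the close match within groups rested largely on these 2 hearts. With the mean of each age group on each slide taken off, also chosen after the data were seen, r was 0.932 over 10 arrays, at places 7 and 2. In that measure the 2 young hearts alone on their slide deviate equally and oppositely by construction, and 20m replicate 1 is kept.

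Klk1b4 shared the high value of 20m replicate 1, at 0.64 over its group mean, but little of the spread among young hearts. Its deviations had r = 0.642 with those of Klk1b16 and 0.601 with those of Klk1b8 over 10 arrays. Without replicate 1 of both groups these were -0.50 and -0.35 over 8 arrays. With the mean of each age group on each slide taken off they were 0.854 and 0.659 over 10 arrays, with the limits given above.

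**Figure D3:**
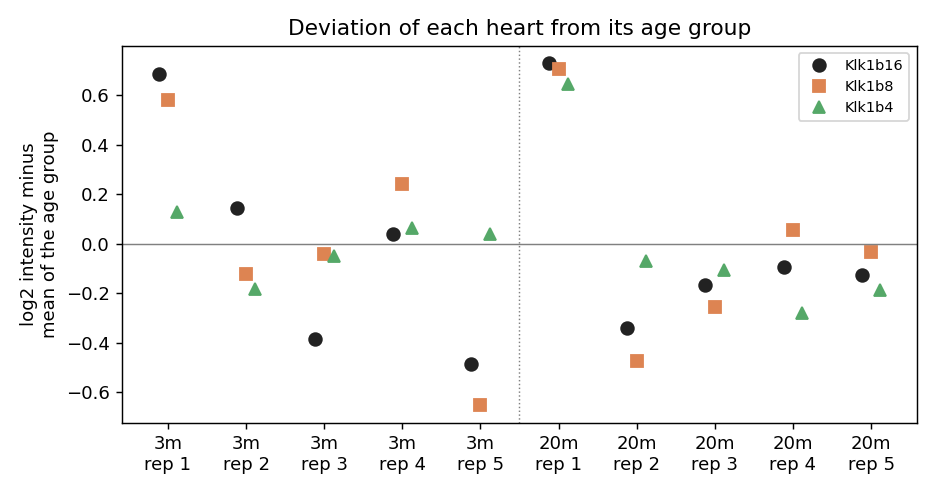
Log2 intensity of Klk1b16, Klk1b8 and Klk1b4 in each heart minus the mean of its age group, with young hearts left and aged hearts right of the dotted line. All 3 features stand highest in 20m replicate 1, by 0.64 to 0.73, while in 3m replicate 1 Klk1b16 and Klk1b8 lie at 0.69 and 0.58 and Klk1b4 at 0.13.

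Named genes outside the family were ranked by the same measures among 732 named features. By log2 values Klk1b16 was most like Serpina3n (r = 0.982), a secreted serine protease inhibitor, Cdh22 (r = 0.982), a cadherin, and Boll (r = 0.977), an RNA-binding protein of germ cells. Boll was well above background on 0 of 5 young arrays, where only a bound on its level was measured, and its log2 fold change was 0.55 with normexp. Klk1b8 was most like Serpina3n (r = 0.986), Cdh22 (r = 0.983) and Amtn (r = 0.970), an enamel protein. The named features were listed for their change with age, so such similarity is largely what the listing brought with it. By deviations within the age groups Klk1b8 was most like Serpina3n (r = 0.810), Vsig4 (r = 0.767), a complement receptor of macrophages, and Fam172a (r = 0.762). The log2 fold change of Fam172a was -1.66, and it was well above background in 2 of 5 aged hearts. Its value was -0.39 with normexp, -0.54 with a floor of 20 (adjusted p = 0.084, limma) and -0.37 with the GAPDH covariate (adjusted p = 0.55, limma), none of which is a call. Klk1b16 was most like Map3k2 (r = 0.858), Uggt1 (r = 0.851) and Grk6 (r = 0.844), which the scanner software marked as well above background in 1, 1 and 0 of 5 aged hearts. Their log2 fold changes, -1.61, -1.52 and -1.67, were -0.29, -0.34 and -0.31 with normexp and -0.27, -0.42 and -0.15 with a floor of 20, and no call was left under either. With the GAPDH covariate Map3k2 (-0.73) and Uggt1 (-0.95) also lost theirs. 3m replicates 1 and 2, alone on their slide, were the 2 highest young hearts for each of these 6 genes. They were also the 2 highest for Klk1b16, but not for Klk1b8. With the mean of each age group on each slide taken off, Klk1b16 had r = 0.765, 0.812 and 0.747 with Map3k2, Uggt1 and Grk6. These stood at places 160, 74 and 199 among all 41202 features, named or not. By the same measure Klk1b8 had r = 0.785, 0.784 and 0.732 with Serpina3n, Vsig4 and Fam172a, at places 117, 120 and 269.

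Slide and RNA measures moved with the groups. Slides were told apart here only by the recorded scan date. By that date 3m replicates 1 and 2 were on a slide of their own. The other 3 young hearts shared a slide with all 5 aged hearts. On their own slide the 2 young hearts had means of 5.91 for Klk1b16 and 6.05 for Klk1b8, against 5.22 ± 0.28 and 5.67 ± 0.46 (SD, n = 3) for young hearts on the shared slide. Within the shared slide the log2 fold changes were 4.40 for Klk1b16, 3.94 for Klk1b8 and 2.88 for Klk1b4. The changes were thus as large or nearly so without the young hearts of the other slide.

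The arrays carry control features along GAPDH and PGK1 that compare the 3' with the 5' end of a transcript, a measure of how complete the labelled transcripts are. The log2 ratio for GAPDH was 1.98 ± 0.25 (SD, n = 5) in young and 2.59 ± 0.30 (SD, n = 5) in aged hearts, and for PGK1 8.29 ± 0.26 and 9.13 ± 0.13 (SD, n = 5 each). Each difference had p = 0.00794 in a two-sided exact permutation test, the smallest that 5 against 5 arrays can give. With the GAPDH ratio as a covariate the log2 fold changes were 4.66 for Klk1b16, 4.27 for Klk1b8 and 2.89 for Klk1b4. The GAPDH ratio ran from 1.70 to 2.17 in young and from 2.33 to 3.06 in aged hearts, without overlap. Among young hearts it was 1.71 and 1.70 in replicates 1 and 2, on their own slide, and 2.14 to 2.17 in the others. This covariate and age cannot be cleanly told apart on these arrays, which holds for every fit given with it. The part of transcript completeness in the members' change was therefore not tested.

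**Figure D4:**
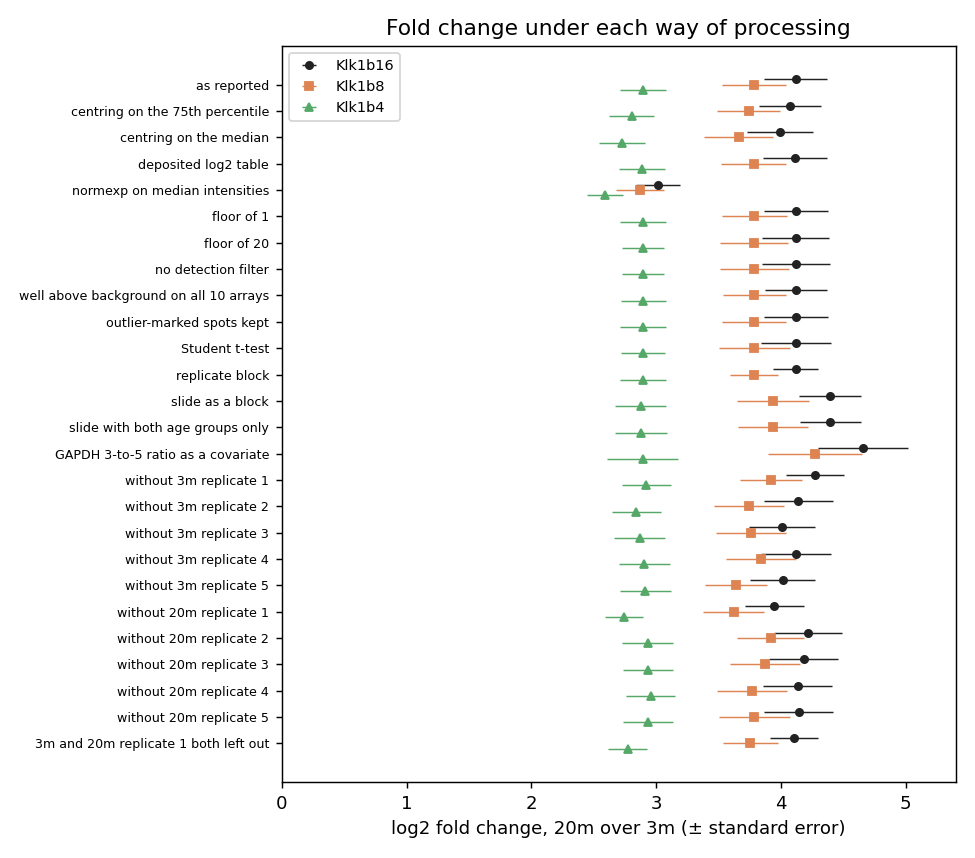
Log2 fold change (20m over 3m, horizontal axis, ± standard error) of Klk1b16, Klk1b8 and Klk1b4 as reported and under 25 alternatives, one per row. Klk1b16 lies between 3.02 and 4.66, Klk1b8 between 2.87 and 4.27 and Klk1b4 between 2.59 and 2.96, with the normexp row lowest for each.

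Genes that act around kallikreins were taken from lists of known components, and only features the study had listed on these samples carry a name, so the counts are no independent evidence of direction. Of 26 kallikrein genes 3 had a named feature, the trio above, and all 3 were called higher. Of 14 genes of the kallikrein-kinin and renin-angiotensin systems 1 had a named feature, Agtr1a, the angiotensin II type 1a receptor. Agtr1a fell from 6.97 ± 0.50 to 5.33 ± 0.84 (SD, n = 5 each), with -1.65 as the log2 fold change (adjusted p = 0.00473, limma). The call was lost with the GAPDH ratio as a covariate, at -0.13 (adjusted p = 0.72, limma), and with normexp, at -0.87, under the limit of 1 log2 unit.

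Of 16 genes for serpin and WAP-domain protease inhibitors 4 had a named feature, and all 4 were called higher, with a median log2 fold change of 2.50. Serpina3n rose from 11.08 ± 0.33 to 13.67 ± 0.51 (SD, n = 5 each), with 2.60 as the log2 fold change (adjusted p = 2.57e-05, limma). Serpina3i and Serpina3b, from the same expanded serpin group, changed by 2.40 and 2.29, and with normexp by 1.34 and 1.59. Wfdc21, a small WAP-domain protein, changed by 3.57 and was well above background on only 2 of 5 young arrays. With normexp its log2 fold change was 1.24.

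No gene of the androgen response list (5 genes) or of the submandibular gland list (14 genes) had a named feature, so the setting in which Klk1b genes are best known was not analysed here. The same held for the lists of cardiomyocytes, fibroblasts, endothelial cells, macrophages, mast cells and red blood cells. Of 6 neutrophil genes 2 had a named feature and both were called higher, with log2 fold changes of 2.69 for Cxcr2, a chemokine receptor, and 2.72 for S100a8, a calcium-binding protein of granulocytes. S100a8 was well above background on only 1 of 5 young arrays, and its log2 fold change was 0.69 with normexp, below the limit for a call. The part of these cells in the members' change was not tested.

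Because the features of both members rose with age, the sequences upstream of the members' RefSeq transcript starts were compared. The following 100 bases end at the base before the start, on the plus strand of GRCm38.p6, with the motif TTTAAA in capitals. The Klk1b16 window, chr7:44137190-44137289, precedes the RefSeq transcript that starts inside the longer gene record given above. The windows of Klk1b8 and Klk1b4 are chr7:43950566-43950665 and chr7:44207333-44207432.
Klk1b16: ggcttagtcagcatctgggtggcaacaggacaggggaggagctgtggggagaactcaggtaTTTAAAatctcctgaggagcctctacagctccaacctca
Klk1b8: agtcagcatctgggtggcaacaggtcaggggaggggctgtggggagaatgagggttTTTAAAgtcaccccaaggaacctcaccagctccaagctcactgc
Klk1b4: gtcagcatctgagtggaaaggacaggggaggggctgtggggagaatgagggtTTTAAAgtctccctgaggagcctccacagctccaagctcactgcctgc

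The motif begins 39 bases before the start in Klk1b16, 44 in Klk1b8 and 48 in Klk1b4. Within 250 bases upstream, TTTAAA, which reads the same on both strands, was present in 12 of 14 kallikrein promoters of the Klk1 and Klk1b genes and in 12.1% of all 32851 promoter windows in the RefSeq table. TATAAA (or TTTATA on the other strand) was in 0 of the 14 and in 12.4% of all windows. AGAACA (or TGTTCT), a steroid hormone receptor half-site, was in 2 of the 14, Klk1b24 and Klk1b3, and in 16.1% of all windows. These are matches of letters in one window and describe no site in use.

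The upstream sequences of Klk1b16 and Klk1b8 were not closer to each other than to other family members. They were 74.3% identical over the aligned 250 bases, against a median of 72.6% and a range of 35.5 to 89.7% over the 91 pairs of the 14 promoters. Klk1b8 was at place 9 of 13 among the mates of Klk1b16, and Klk1b16 at place 7 of 13 among those of Klk1b8. The closest mate was Klk1b11 (89.7%) for Klk1b16 and Klk1b5 (79.6%) for Klk1b8, and neither mate had a named feature.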

How the data were processed

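Total RNA of 10 mouse hearts was labelled and hybridized to one-colour Agilent mouse long noncoding RNA arrays, and the authors deposited scanner intensity files and a log2 table that their methods describe as quantile-normalized. The scanner files were written by Agilent Feature Extraction 11.0.1.1, per the file headers. Here the deposited processed intensities were quantile-normalized over 60641 features with outlier-marked spots left out, and log2 was taken after values under 5 had been raised to 5. Features well above background on at least 5 of 10 arrays were fitted with limma 3.58.1 in R 4.3.3 (20m against 3m, 1 mouse per array), with Benjamini-Hochberg adjustment over 16720 mRNA features. The fit was tested on simulated data. Features were named by matching fold changes and p-values of the study's list to the deposited log2 table, and each of the 118 entries matched exactly 1 feature. Those columns of the authors' comparison served for names only. Members and lists were chosen with earlier results of these data known. Named genes were the members, Klk1b4, members of the lists and the 3 named features most like each member. Motifs and identities were computed with Biopython 1.88 from RefSeq sequences of GRCm38.p6. Alternatives covered scaling, background correction, floor, filters, the slide, a Student test of the same values, the GAPDH ratio and each heart left out. The slide was read from the scan date. The number of arrays limits the precision.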

Additional observations from a re-analysis of the deposited data

Results flagged for a closer look

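In 20m replicate 1 the Klk1b16 feature stood apart from the other aged hearts, at a log2 intensity of 10.35, and its gap to the next heart was 0.767 of the group's range. The Klk1b4 feature stood apart in the same heart, at 11.06 (gap 0.773 of the range). Klk1b8 was also highest there, at 10.32, without passing the same limit. Of 42 groups of 5 hearts examined, over genes and differences between features, chance alone would mark about 1 in 20. Without this heart the log2 fold changes were 3.95 for Klk1b16, 3.62 for Klk1b8 and 2.74 for Klk1b4.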

How the results depend on the processing

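Klk1b16 and Klk1b8 were higher in aged hearts under all 25 alternatives, and Klk1b4 was called higher in each. Not all of these could move the fold changes. The other floors, the detection filters, the Student test and the replicate block left them at 4.12, 3.79 and 2.90 by construction. Slide as a block and the shared slide alone gave the same estimates as each other. With normexp on median intensities and an offset the log2 fold changes were 3.02 for Klk1b16 and 2.87 for Klk1b8, and with the GAPDH ratio as a covariate they were 4.66 and 4.27. Leaving out 1 heart at a time gave 3.95 to 4.28 for Klk1b16 and 3.62 to 3.92 for Klk1b8, lowest without 20m replicate 1 and highest without 3m replicate 1. The same gave 2.74 to 2.96 for Klk1b4 and 0.25 to 0.40 for Klk1b16 minus Klk1b8, which was 0.33 as reported, 0.15 with normexp and 0.46 with slide as a block. The number of mRNA features called higher, 669, was 247 with normexp and 430 with a floor of 20, and 577 to 760 with 1 heart left out. The number called lower, 1613, was 545 with normexp, 1073 within the shared slide, 531 with the GAPDH covariate and 1249 to 1844 with 1 heart left out. The causes were not tested, apart from the shrinkage that an offset gives dim features by construction. Replicate numbers name different animals and do not pair them. With the replicate number as a replicate block the log2 fold changes stayed 4.12, 3.79 and 2.90, and 669 features were called higher and 1612 lower.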
